A study of Mus musculus with 11 samples.

Results

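The 32 genes described here encode glutamate receptor subunits and the scaffold proteins that hold these receptors at the postsynaptic membrane. They were taken by symbol from the 31053 genes of single-nucleus RNA-seq matrices of mouse cortex. The set holds 4 AMPA receptor genes, 7 NMDA receptor genes, 5 kainate receptor genes, 6 metabotropic receptor genes, the delta receptor gene Grid1, and 4 Dlg, 3 Shank and 2 Grip scaffold genes. Their levels were followed across neuronal and glial types and across 4 genotypes.

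Nuclei came from the frozen cortex of 11 mice aged 8.39 to 10.85 months, with 1 library per mouse. They are labelled female, whereas the study's methods name male mice for RNA-seq. In excitatory neuron-like nuclei Xist measured 755 to 1469 CPM over the 11 mice, and the highest value of the Y-linked Uty, Kdm5d, Ddx3y and Eif2s3y was 1.31 CPM, so all libraries matched the label. The 4 non-transgenic mice (ikbkb+/+) were compared with 3 P301S mice (ikbkb+/+;P301S+), 2 knockout P301S mice (ikbkb-/-;P301S+) and 2 active IKKb P301S mice (ikbkbCA;P301S+). P301S mice carry a human tau transgene with the P301S mutation under a prion promoter, which is the PS19 model of tauopathy. Ikbkb encodes the kinase IKKb, which switches on NF-κB signaling. A tamoxifen-inducible Cre in cells that express Cx3cr1, chiefly microglia, deleted Ikbkb in the knockout mice. In the active IKKb mice it released a constitutively active IKKb that had been placed in the Rosa locus behind a stop. The knockout and active IKKb mice carried 1 Cre-bearing Cx3cr1 allele, and the non-transgenic and P301S mice had no Cre but, by the study's methods, floxed alleles of the same kind. All mice, controls included, were given tamoxifen. The mice came from a floxed line and an active line, and the knockout mice were all of the first and the active IKKb mice all of the second. Non-transgenic mice 1 and 2 and P301S mice 1 and 2 were of the floxed line. Non-transgenic mice 3 and 4 and P301S mouse 3 were of the active line. Ages were 9.8 to 10.85 months in non-transgenic and 9.15 to 10.75 in P301S mice. They were 8.39 and 9.15 months in knockout P301S and 9.8 and 10.85 in active IKKb P301S mice. The comparison of knockout with P301S mice is thus partly confounded with age. Neurons were not the target of the Cre, and the genotype comparisons ask whether transcripts of the glutamatergic synapse differed in neurons and glia of mice with tau and with altered microglial NF-κB.

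AMPA, NMDA and kainate receptors are ion channels built from subunits around a central pore. AMPA receptors carry most of the fast excitatory current, and the GluA2 subunit encoded by Gria2 makes them nearly impermeable to calcium. NMDA receptors need the GluN1 subunit of Grin1 together with GluN2 or GluN3 subunits, whose choice sets channel kinetics and magnesium block. Metabotropic receptors signal through G proteins, and the Dlg, Shank and Grip proteins anchor receptors in the postsynaptic density, the protein layer under the excitatory synapse.

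After filtering, 102936 nuclei were used, of which 38395 were excitatory neuron-like, 14025 inhibitory neuron-like, 9667 striatal projection neuron-like, 6839 astrocyte-like, 18156 oligodendrocyte-like, 2981 OPC-like (oligodendrocyte precursor) and 4473 microglia-like. No member and no gene of the pathway list was used as a variable gene to form clusters. Types were named from fixed marker lists. Levels are given as CPM, the unique transcript counts (UMIs) of a gene per 1000000 UMIs of all nuclei of that type in a mouse. Summed UMIs per mouse ran from 28055259 to 47468950 in excitatory neuron-like nuclei and from 386265 to 1628657 in microglia-like nuclei, so that glial values rest on fewer counts. Library pairs shared 15 to 45 barcodes. Striatal projection neuron-like nuclei, which are not of the cortex, numbered 390 to 1543 per mouse, and whether dissection differed between mice was not tested. Within the inhibitory neuron-like nuclei, a cluster of 5142 nuclei led by Baiap3, outside the named cortical subtypes, made up 8.77% to 26.9% of the nuclei in non-transgenic, 25.9% to 57.6% in P301S, 29.9% to 40.9% in knockout P301S and 20.3% to 69.8% in active IKKb P301S mice. Inhibitory values are for this reason also given for named cortical interneurons alone where it matters.

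Before the member results, the labels were checked on the genes that the alleles concern. In microglia-like nuclei Ikbkb measured 123 to 155 CPM in non-transgenic, 134 to 148 in P301S, 111 to 113 in knockout P301S and 150.3 to 166 in active IKKb P301S mice. The knockout mice lay below all P301S mice and the active IKKb mice above them, with log2 fold changes of -0.32 (edgeR adjusted p = 0.599) and 0.16 (adjusted p = 0.927) against P301S. Counts at the 3′ end of the transcript need not fall in the deleted part, nor was it known whether transcripts of the inserted active form are counted as Ikbkb, so this check is a weak one. Prnp, the prion gene whose promoter drives the tau transgene, was counted near 0 in excitatory neuron-like nuclei. It measured 0.086 to 0.209 CPM in non-transgenic and 0.143 to 0.262 CPM in P301S mice. The log2 fold change of 0.75 ± 0.44 did not pass the test (edgeR adjusted p = 0.9999). Levels this near 0 rest on few counts, so the Prnp check cannot tell whether the transgene was present. Why Prnp was so low, and whether its reads were lost in counting, was not tested. The values thus do not show that the gene is silent.

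The 3 genes Grin1, Grin2c and Grm3 stand for patterns described here, a neuronal, an astrocyte and a mixed one, and are shown with the sequence before their start sites. Grin1 encodes the obligatory NMDA receptor subunit, Grin2c was the member most restricted to astrocyte-like nuclei, and Grm3 was high in glia and in some neurons. Each run is the 250 bases before the RefSeq start site, 5′ to 3′ on the gene's strand, in build GRCm38.p6. Capitals mark the GC box GGGCGG on either strand.
Grin1 (chr2:25319188-25319437, minus strand): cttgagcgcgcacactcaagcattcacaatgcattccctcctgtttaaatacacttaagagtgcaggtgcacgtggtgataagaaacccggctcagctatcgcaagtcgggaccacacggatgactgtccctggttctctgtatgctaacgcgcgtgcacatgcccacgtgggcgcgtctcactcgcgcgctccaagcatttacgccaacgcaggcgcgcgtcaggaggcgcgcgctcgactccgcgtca
Grin2c (chr11:115267244-115267493, minus strand): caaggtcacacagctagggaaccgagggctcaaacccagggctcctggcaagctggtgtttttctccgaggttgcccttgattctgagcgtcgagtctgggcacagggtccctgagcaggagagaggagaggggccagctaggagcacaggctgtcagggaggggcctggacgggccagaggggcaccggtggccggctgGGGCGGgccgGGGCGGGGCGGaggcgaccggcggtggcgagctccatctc
Grm3 (chr5:9725353-9725602, minus strand): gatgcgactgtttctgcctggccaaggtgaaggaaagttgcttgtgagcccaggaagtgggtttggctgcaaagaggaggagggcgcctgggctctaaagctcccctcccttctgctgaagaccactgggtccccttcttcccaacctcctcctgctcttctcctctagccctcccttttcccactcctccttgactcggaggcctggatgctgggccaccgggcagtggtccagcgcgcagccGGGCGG
The Grin2c window held 3 GC boxes, the last pair overlapping, the Grm3 window 1 and the Grin1 window 0. A GC box stood in 32.7% of the 32851 windows of this length in the table. GC content was 58.8% for Grin1, 68.8% for Grin2c and 62.4% for Grm3, against a median of 52.4% over all windows. The cAMP response element TGACGTCA (1.55% of windows, either strand) and the palindromic NFI motif (0.0365%, either strand) were in none of the 3 windows. The Grm3 window lies 182 bases from the start that GENCODE gives. The table held windows for 21 of the 32 members.

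By mean CPM over the 11 mice, 23 of the 32 members were highest in a neuronal type, 9 of them in excitatory, 6 in inhibitory and 8 in striatal projection neuron-like nuclei. The other 9 were highest in glia, 5 in OPC-like, 3 in astrocyte-like and 1 in oligodendrocyte-like nuclei, and no member was highest in microglia-like nuclei. The highest type was the same in all 11 mice for 23 members, whatever the genotype. These orders are over whole types, are a description and were not tested. Grin3a, Grik4 and Dlg3, highest in OPC-like nuclei at 755, 523 and 54.6 CPM, were higher by mean in a neuronal subtype described below. These were Sst interneuron-like (1339 CPM), layer 6b (587 CPM) and upper-layer (56.4 CPM) nuclei. Gria2, Grin2c, Grin3b, Grm3, Grid1 and Dlg1 were higher in glia than in any named subtype. Fold differences between types are geometric means over the mice.

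**Figure D1:**
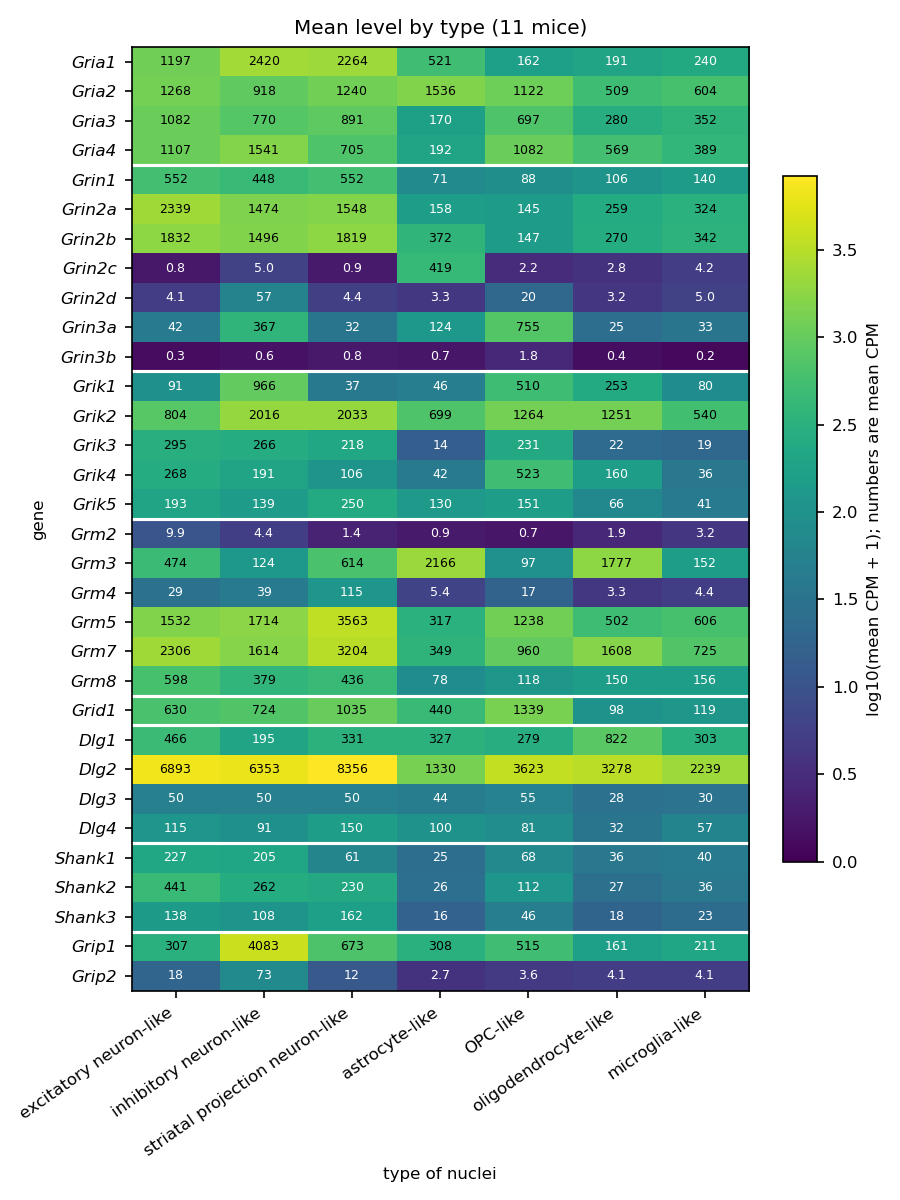
Mean CPM over 11 mice of each of the 32 genes (rows, grouped by family) in 7 types of nuclei (columns), with colour on a log10(mean CPM + 1) scale and the mean printed in each cell. Grin2c stands out in astrocyte-like nuclei at 419 CPM against 0.815 in excitatory neuron-like nuclei, and Grip1 in inhibitory neuron-like nuclei at 4083 CPM.

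Among the AMPA receptor genes, Gria1, which encodes GluA1, was 2.03-fold higher in inhibitory than in excitatory neuron-like nuclei, at 2420.4 ± 239 against 1197 ± 157 CPM (SD, n = 11), and the ranges did not overlap. Striatal projection neuron-like nuclei were close behind at 2264 ± 121 CPM and overlapped with the inhibitory ones. The inhibitory level was uneven, with means of 4753 CPM in Sst and 2742 CPM in Pvalb interneuron-like nuclei. Single mice ranged from 1251 to 1561 CPM in Vip and from 1072 to 1766 CPM in Lamp5 interneuron-like nuclei. Gria2 went the other way, at 1268 ± 81.6 CPM in excitatory and 918 ± 68.2 CPM in inhibitory neuron-like nuclei, and was lower in the latter in all 11 mice. Its highest mean was in astrocyte-like nuclei, at 1536 ± 115 CPM, 1.21-fold above the excitatory level in all 11 mice though the ranges overlapped. Gria3 was highest in excitatory neuron-like nuclei at 1082 ± 84.1 CPM and Gria4 in inhibitory ones at 1541 ± 146 CPM. OPC-like nuclei held Gria2 and Gria4 at near neuronal levels, 1122 ± 74.8 and 1082 ± 85.7 CPM, and Gria1 at only 162 ± 36.8 CPM.

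Gria2 made up 27.2% ± 1.39 of the Gria1 to Gria4 UMIs in excitatory and 16.3% ± 1.29 in inhibitory neuron-like nuclei (SD, n = 11), and the 11 values of each did not overlap. The share was 36.6% ± 2.01 in OPC-like and 64.2% ± 7.26 in astrocyte-like nuclei. Within the interneurons it was lowest in Sst and Pvalb interneuron-like nuclei, 10.5% ± 0.666 and 12.1% ± 0.637, and reached 27.5% ± 1.6 in Vip interneuron-like nuclei, the level of excitatory neurons. These shares count UMIs of genes of unequal length, so they compare types and not amounts of protein subunits.

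The NMDA receptor genes included neuronal subunits and others found mainly in a single type. Grin1 was 552 ± 61.7 CPM in excitatory, 552 ± 61.1 in striatal projection and 448 ± 57.4 in inhibitory neuron-like nuclei, and 71.2 to 140.3 CPM by mean in the 4 glial types. Grin2a was 2339 ± 183 CPM in excitatory neuron-like nuclei, 1.6-fold above inhibitory ones, with no overlap over the mice. Grin2b was more even, at 1832 ± 78.2 and 1496 ± 95.9 CPM, again without overlap. Excitatory and striatal projection neuron-like nuclei overlapped for Grin1 and Grin2b, where the former was higher in 5 of 11 and 7 of 11 mice.

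Grin2c, a subunit gene best known from cerebellar granule cells, measured 419 ± 58.1 CPM in astrocyte-like nuclei, with lowest 338, median 420.1 and highest 515 CPM over the 11 mice. It was 0.815 ± 0.235 CPM in excitatory neuron-like nuclei, the lowest type by mean, which the astrocyte level exceeded 530.4-fold, in 11 of 11 mice. Inhibitory neuron-like nuclei were the next highest type after astrocyte-like ones, with a mean of 4.95 CPM. The other glial types held 2.15 ± 1.85 (OPC-like), 2.8 ± 1.24 (oligodendrocyte-like) and 4.23 ± 3.97 CPM (microglia-like). Astrocyte-like values stood far above all others in every mouse. Grin2d was an interneuron transcript at 56.6 ± 6.64 CPM, 13.7-fold above excitatory neuron-like nuclei and 2.81-fold above OPC-like ones. Grin3a, which encodes the glycine-binding subunit GluN3A, was highest in OPC-like nuclei at 755 ± 47.7 CPM, 18.2-fold above excitatory and 2.09-fold above inhibitory neuron-like nuclei, without overlap. The gene Ppp3r2 overlaps Grin3a on the same strand, and their reads may not be separable. Grin3b was close to the detection limit in all types, at 0.33 ± 0.129 CPM in excitatory neuron-like nuclei and 362 UMIs over the 7 types.

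Kainate receptor genes were counted in interneurons and in the oligodendrocyte lineage as well as in excitatory neurons. Grik1 was 966 ± 173 CPM in inhibitory neuron-like nuclei, 10.7-fold above excitatory ones, and was next highest in OPC-like nuclei at 510.3 ± 56.4 CPM. Grik4 was highest in OPC-like nuclei at 523 ± 60.8 CPM against 268 ± 52 in excitatory neuron-like nuclei. Grik2 was 2033 ± 306 and 2016 ± 258 CPM in striatal projection and inhibitory neuron-like nuclei, which did not differ beyond their spread, and 1264 ± 92 and 1251 ± 69.1 CPM in OPC-like and oligodendrocyte-like nuclei, both above the 804 ± 100.2 CPM of excitatory neuron-like nuclei in all 11 mice. Grik3 (295 ± 49.6 CPM) and Grik5 (193 ± 31.8 CPM) were measured in excitatory neuron-like nuclei, and OPC-like nuclei had 231 ± 32.1 and 151 ± 19.6 CPM.

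Of the metabotropic receptor genes, Grm3, which encodes the Gi-coupled receptor mGluR3, was highest in astrocyte-like nuclei at 2166 ± 375 CPM. Oligodendrocyte-like nuclei followed at 1777 ± 183 CPM, lower in 9 of 11 mice but with overlapping ranges. Excitatory neuron-like nuclei had 474 ± 61.6 and OPC-like nuclei 97 ± 17.7 CPM. Grm5, the Gq-coupled receptor mGluR5, was 3563 ± 331 CPM in striatal projection neuron-like nuclei, 2.33-fold above excitatory neuron-like nuclei, and 317 ± 54.9 CPM in astrocyte-like nuclei. Grm7 was also highest in striatal projection neuron-like nuclei at 3204 ± 372 CPM and Grm4 at 115 ± 25.5 CPM. Grm8 was highest in excitatory neuron-like nuclei at 598 ± 74.1 CPM. Grm2, the nearest relative of Grm3, measured 9.94 ± 1.24 CPM in the same nuclei. It is a much shorter gene, and per 100 kb of gene body it had 76.5 CPM against 198 for Grm3. Grid1 was highest in OPC-like nuclei at 1339 ± 57.6 CPM, 2.13-fold above excitatory neuron-like nuclei.

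Among the scaffold genes, Dlg2, which encodes PSD-93, was highest in striatal projection neuron-like nuclei at 8356 ± 845 CPM, with 6893 ± 560.2 in excitatory and 6353 ± 672 in inhibitory neuron-like nuclei. Dlg4, which encodes PSD-95, ranged from 149.9 ± 16.4 CPM in striatal projection and 115 ± 21.1 in excitatory neuron-like nuclei to 99.7 ± 9.55 in astrocyte-like and 32.3 ± 5.83 in oligodendrocyte-like nuclei. Dlg1, which encodes SAP97, was highest in oligodendrocyte-like nuclei at 822 ± 63.4 CPM, 1.76-fold above excitatory neuron-like nuclei without overlap. Dlg3 was 50 ± 3.51, 49.9 ± 5.13 and 49.8 ± 5.82 CPM in excitatory, inhibitory and striatal projection neuron-like nuclei and 54.6 ± 7.16 CPM in OPC-like nuclei. Shank1, Shank2 and Shank3 were 227 ± 30.7, 441 ± 66.5 and 138 ± 16.5 CPM in excitatory neuron-like nuclei and 16.1 to 40.1 CPM by mean in astrocyte-like, oligodendrocyte-like and microglia-like nuclei. Shank1 and Shank3 parted in striatal projection neuron-like nuclei, where Shank1 was only at 60.8 ± 11.5 CPM and Shank3 was at 162 ± 20.7. Grip1, which binds the GluA2 tail, was 4083 ± 739.7 CPM in inhibitory neuron-like nuclei, 13.2-fold above excitatory ones, and Grip2 was 72.6 ± 9.95 CPM there, 4.08-fold above.

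Nuclear counts that include unspliced RNA grow with gene length, so genes were ranked against each other per 100 kb of gene body in the GENCODE M21 annotation (mm10). Other comparisons between genes, save that of Grm2 with Grm3, used raw CPM or UMIs and were not adjusted for length. In excitatory neuron-like nuclei Grin1 (chr2:25291181-25319187) was highest at 1971 CPM per 100 kb, followed by Gria2 (chr3:80681450-80802835) at 1044. Grin2a was 547, Shank1 452, Grin2b 398, Gria3 389.5, Dlg4 377, Gria1 375 and Dlg2 349 CPM per 100 kb. Dlg2 (chr7:90476672-92449247) and Dlg4 (chr11:70016942-70047522), which differ widely in raw CPM, were thus alike per length. The annotated gene Gm45159 overlaps Dlg2 on the same strand.

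Neuronal subtypes separated many of these genes further. The 11 named subtypes held from 901 nuclei (near-projecting) to 7591 (upper-layer), with as few as 37 nuclei in a mouse for the claustrum-like subtype. They did not cover all neurons. The named interneuron subtypes held 6138 of the 14025 inhibitory neuron-like nuclei, and a sizeable part of the 38395 excitatory ones had no subtype name. Orders between subtypes concern the named ones only. The highest subtype was the same in all 11 mice for 10 members, namely Gria1, Gria4, Grin2a, Grin2b, Grin3a, Grik1, Grik3, Grm2, Grm4 and Shank3. Sst interneuron-like nuclei held Gria1 at 4753 ± 343 CPM, 1.73-fold above Pvalb and 3.5-fold above Vip interneuron-like nuclei. They also held Grin3a at 1339 ± 133 CPM against 28 ± 8.14 in Pvalb interneuron-like nuclei, a 49.7-fold difference between the interneuron subtypes with the most nuclei. Lamp5 interneuron-like nuclei led for Grin2a at 5115 ± 167 CPM, 1.91-fold above upper-layer and 6.42-fold above Vip interneuron-like nuclei. Grin2a was 77.5% ± 0.711 of the Grin2a and Grin2b UMIs in Lamp5 and 29.9% ± 4.13 in Vip interneuron-like nuclei (SD, n = 11), with 56% ± 1.84 in excitatory neuron-like nuclei as a whole. The NMDA subunit balance thus differed widely between interneuron subtypes. Excitatory subtypes differed too, with Grin2a below Grin2b in layer 6b and above it in near-projecting neuron-like nuclei of every mouse.

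**Figure D2:**
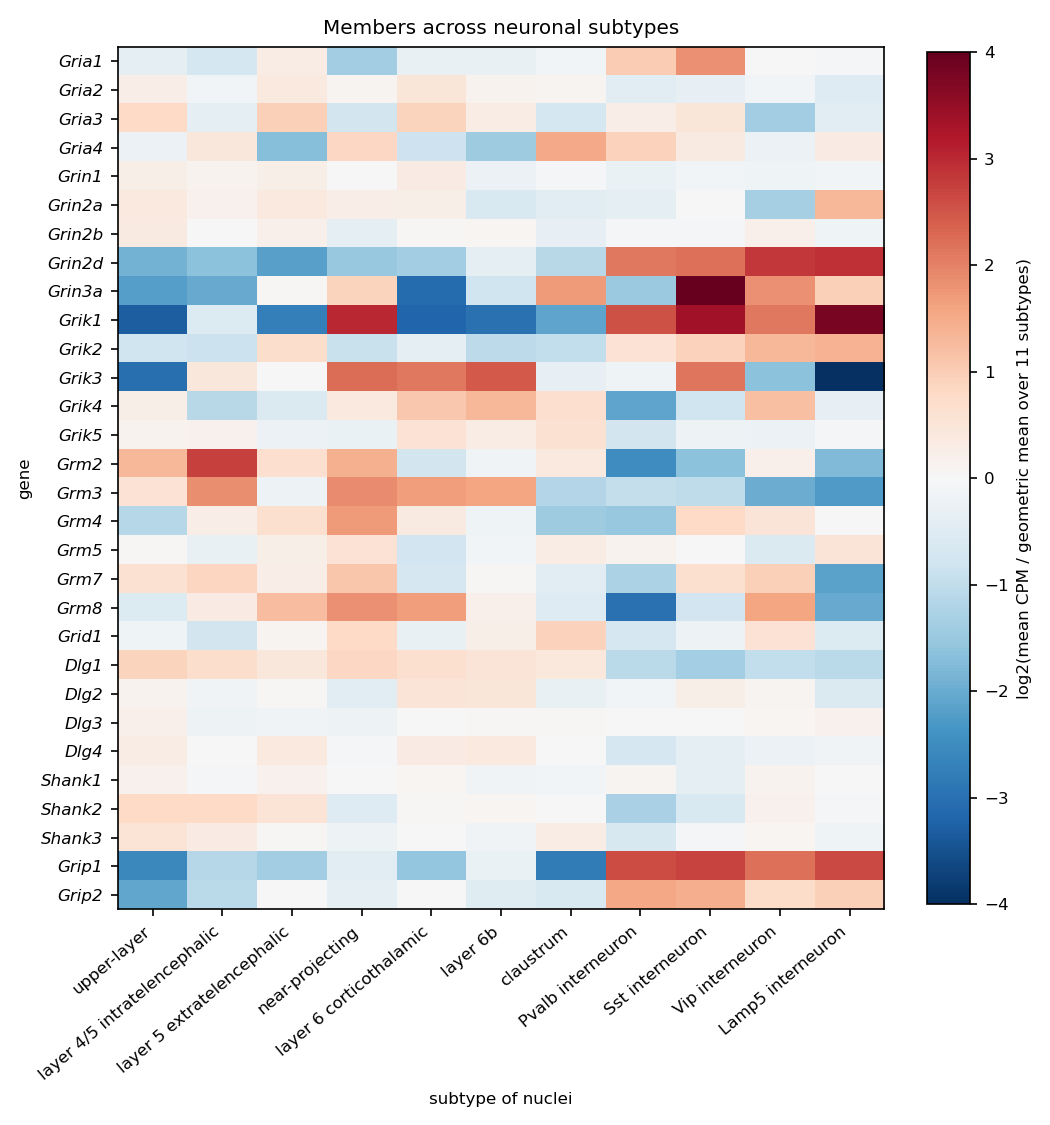
Log2 ratio of the mean CPM (11 mice) in each of 11 neuronal subtypes to the geometric mean over the subtypes, for the 30 genes with a mean of at least 2 CPM. By the spread of these ratios Grik1, Grik3, Grip1 and Grin3a vary most, while Dlg3, Shank1, Grin1 and Grin2b stay near the white middle of the scale.

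Grip1 and Grik1 divided interneurons from most excitatory subtypes. Grip1 was 4008 to 5679.6 CPM by mean in the 4 interneuron subtypes and 125.2 to 717 CPM in the 7 excitatory ones. Grik1 was 2035 ± 254 CPM in Lamp5 and 1499.9 ± 184 in Sst interneuron-like nuclei, while 5 excitatory subtypes had 14.9 to 34.1 CPM and layer 4/5 intratelencephalic nuclei 99.8 ± 56.4 CPM. Near-projecting neuron-like nuclei were the exception among excitatory subtypes, with 1192 ± 251 CPM. The deep-layer subtypes carried Grik3, at 956 ± 144 CPM in layer 6b, 812 ± 118 in near-projecting and 749 ± 107 in layer 6 corticothalamic neuron-like nuclei against 21.3 ± 7.1 in upper-layer ones. Grik3 was also 766 ± 103 CPM in Sst and 9.19 ± 5.7 CPM in Lamp5 interneuron-like nuclei, the subtype with the highest Grik1.

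Gria4 was highest in claustrum-like nuclei at 3321 ± 434 CPM, 1.51-fold above Pvalb interneuron-like nuclei and 9.29-fold above layer 5 extratelencephalic ones, where Gria3 in turn was highest at 1616 ± 167 CPM. The near-projecting subtype led for 5 members, all of them metabotropic receptor genes. These were Grm3 (789.8 ± 111 CPM), Grm4 (95.7 ± 23.1), Grm5 (2474 ± 247), Grm7 (3508 ± 339.7) and Grm8 (1418 ± 134). Near-projecting was the highest subtype in all 11 mice for Grm4 only, and in 9 for Grm7, 8 for Grm5 and Grm8 and 6 for Grm3. The next highest means were Vip for Grm7 (3112 CPM), Lamp5 for Grm5 (2356) and layer 6 corticothalamic for Grm8 (1264). Layer 4/5 intratelencephalic nuclei overlapped with near-projecting ones for Grm3, being lower in 6 of 11 mice, and led for Grm2 at 21.2 ± 5.07 CPM. Grm8 was 29-fold higher in near-projecting than in Pvalb interneuron-like nuclei, which had 49.7 ± 9.34 CPM. Pvalb and Sst interneuron-like nuclei also had low levels of Shank2, Shank3 and Dlg1, with 124 ± 15.3, 73.2 ± 8.08 and 136 ± 11.6 CPM in the Pvalb subtype against 522 ± 86.3, 167 ± 22.1 and 537 ± 66 CPM in upper-layer neuron-like nuclei.

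A low level of a neuronal transcript in glial nuclei can come from RNA set free from neurons. The ratio of each member's CPM in a glial type to its CPM in excitatory neuron-like nuclei of the same mouse was therefore set beside the ratio of 18 neuronal transcripts outside the set, the neuronal background list. These ratios are arithmetic means over the mice, unlike the geometric means given above. All 18 had UMIs in every glial type, and the highest of their ratios in a mouse was 0.198 to 0.384 in astrocyte-like, 0.4 to 0.589 in OPC-like, 0.319 to 0.658 in oligodendrocyte-like and 0.42 to 0.856 in microglia-like nuclei. The median over the list was lower, at 0.0823 to 0.158, 0.109 to 0.189, 0.156 to 0.259 and 0.18 to 0.306 in these types. The bar was the highest ratio. In all 11 mice 12 members exceeded this in astrocyte-like nuclei, 14 in OPC-like, 5 in oligodendrocyte-like and 0 in microglia-like nuclei. Some members are low in excitatory and high in inhibitory or striatal projection neuron-like nuclei, so this base does not cover RNA set free from those neurons. With the neuronal type in which each gene was highest in the mouse as the base, for members and background genes alike, an alternative chosen after the data were seen, the numbers were 8, 11, 2 and 0.

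In astrocyte-like nuclei the members furthest above the background were Grin2c, with a ratio of 547 ± 137 (SD, n = 11), Grm3 at 4.63 ± 0.945, Grin3a at 3.1 ± 1.11, Gria2 at 1.21 ± 0.069, Grip1 at 1.01 ± 0.16 and Dlg3 at 0.894 ± 0.145. The others were Grik2, Dlg4, Grin2d, Dlg1, Grid1 and Grik5, of which Grin2d rests on 100 UMIs. Against the highest neuronal type Grin2c was still at 107 ± 49.6, Grm3 at 3.59 ± 0.738, Gria2 at 1.21 ± 0.069 and Dlg3 at 0.851 ± 0.136. Grip1, Grin2d, Grin3a and Grik2 came to 0.0769 ± 0.0154, 0.0578 ± 0.0164, 0.35 ± 0.116 and 0.344 ± 0.0587 and were no longer above the background. In OPC-like nuclei the ratio was 18.7 ± 4.53 for Grin3a, 5.81 ± 1.27 for Grik1, 4.99 ± 1.23 for Grin2d, 2.13 ± 0.151 for Grid1, 1.99 ± 0.261 for Grik4 and 1.7 ± 0.205 for Grip1, and the other 8 were Grik2, Dlg3, Gria4, Gria2, Grm5, Grik3, Grik5 and Gria3. Against the highest neuronal type Grik1, Grin2d, Grm5 and Grip1 were within the background in OPC-like nuclei, while Grin3a was at 2.12 ± 0.44, Grik4 at 1.98 ± 0.251 and Grid1 at 1.29 ± 0.0564, and Dlg1 was above it. That base is a whole type. By mean CPM, Sst interneuron-like nuclei (Grin3a, 1339) and layer 6b nuclei (Grik4, 587) were above OPC-like nuclei (755 and 523). For Grid1 no named subtype was (1291 in claustrum-like against 1339 in OPC-like nuclei). The kainate receptor genes Grik2 to Grik5 and the AMPA receptor genes Gria2 to Gria4 were above the background in OPC-like nuclei with both bases, whereas Grin1, Grin2a and Grin2b were not with either. In oligodendrocyte-like nuclei Grm3 reached 3.82 ± 0.74, Grin2c 3.46 ± 1.22, Grik1 2.72 ± 1.07, Dlg1 1.77 ± 0.154 and Grik2 1.57 ± 0.158. Against the highest neuronal type Grm3 (2.97 ± 0.535) and Dlg1 (1.77 ± 0.154) stayed above the background, and Grin2c, Grik1 (0.267 ± 0.148) and Grik2 did not. The Grin2c ratio there compares 2.8 with 0.815 CPM, beside 419 CPM in astrocyte-like nuclei, and whether free astrocyte RNA gives it was not tested. In microglia-like nuclei all 32 members were within the background in at least 1 mouse, so by this bar their counts there could not be told from free RNA. Without non-transgenic mouse 1 Grip1 was above it in the other 10 mice, and without P301S mouse 1 so was Grik1, both of them highest in inhibitory neuron-like nuclei.

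**Figure D3:**
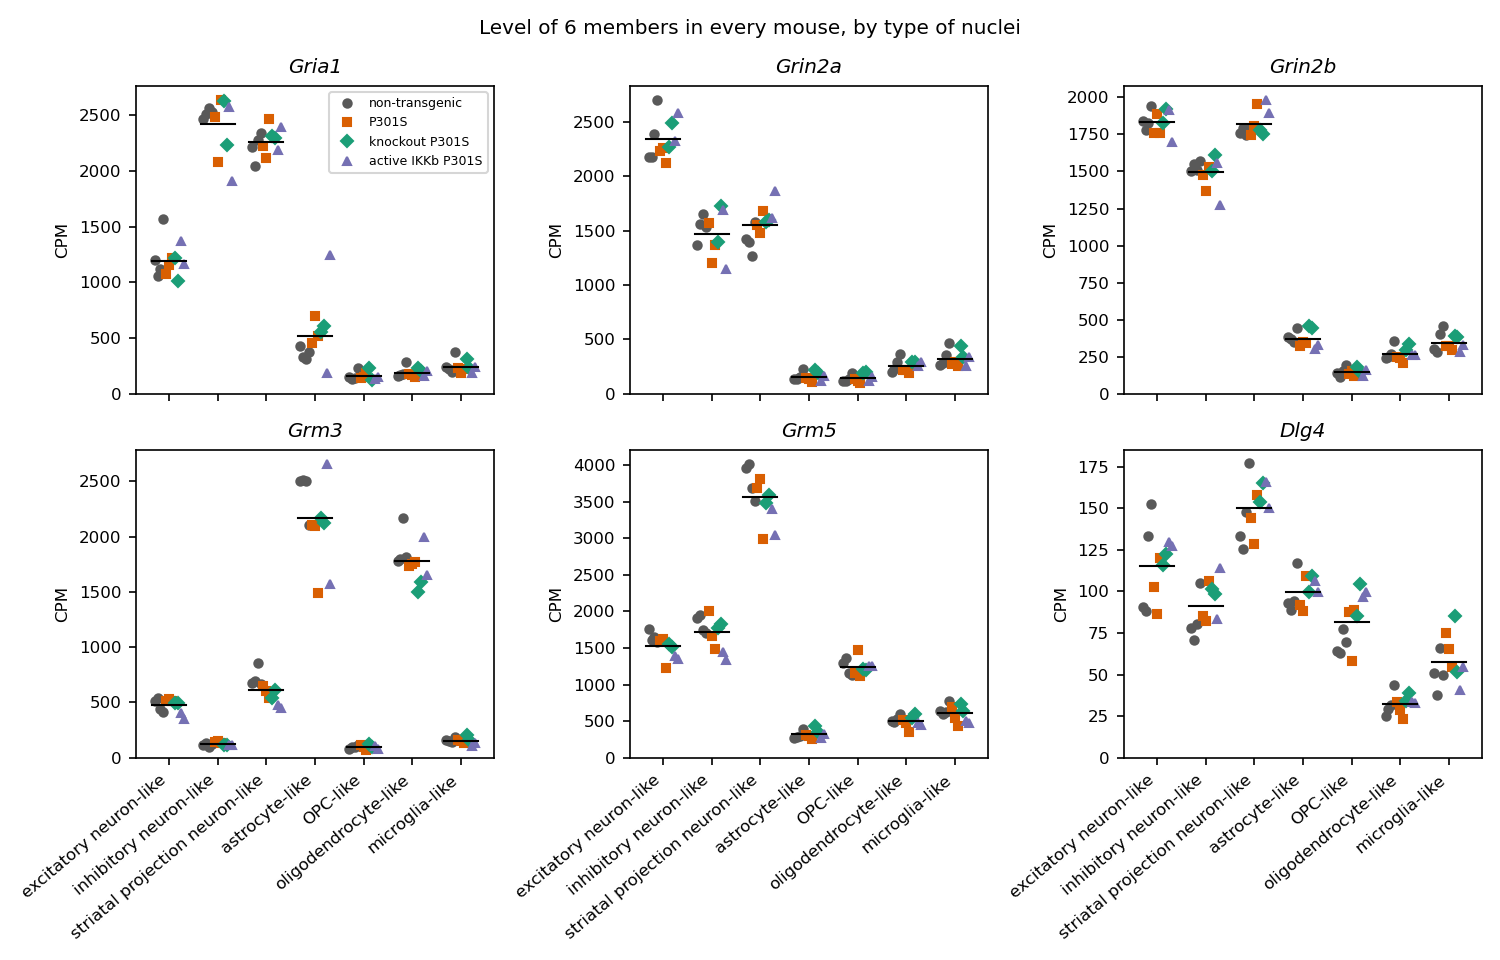
CPM of 6 genes in each of the 11 mice (points, coloured by genotype) by type of nuclei, with a black bar at the mean of the 11 mice and a linear axis from 0. Grin2a, Grin2b and Grm5 stand higher in the neuronal than in most glial types in every mouse, and Gria1 in astrocyte-like nuclei ranges from 191 to 1251 CPM.

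No member was called as different between genotypes in the 6 types compared, which were the excitatory, inhibitory and 4 glial ones. Striatal projection neuron-like nuclei were not compared between genotypes. Counts were summed per mouse and type and fitted across all genes with edgeR's quasi-likelihood test, and calls needed an adjusted p (Benjamini-Hochberg, over all genes) below 0.05 and a log2 fold change beyond 0.1 in size. Over 20 combinations of type and contrast, there were 600 member tests. edgeR made 0 calls, with 73 tests at an unadjusted p below 0.05, and DESeq2 made 0, with 66. These were 12.2% and 11% of the member tests, beside 6.34% and 4.17% of the tests of all genes in the same fits. Of all genes DESeq2 called 0.0388%, 0.122% and 0.0554% in the P301S, knockout and active IKKb contrasts of excitatory neuron-like nuclei, 0.0193%, 0.0% and 0.0129% in inhibitory, 0.00819%, 0.0409% and 0.0% in astrocyte-like, 0.0155%, 0.0466% and 0.0155% in oligodendrocyte-like, 0.00984%, 0.00984% and 0.0% in OPC-like and 0.0444%, 0.0% and 1.13% in microglia-like nuclei. Over all transgenic mice its shares were 0.0574% in excitatory and 0.047% in inhibitory neuron-like nuclei. The lowest adjusted p of a member was 0.276 by edgeR, for Grik3 in microglia-like nuclei of the active IKKb contrast. Without the filter on low counts edgeR made 4 calls in the P301S contrast, 8 calls of 5 distinct members in the knockout contrast and 3 calls in the active IKKb contrast, all in astrocyte-like, oligodendrocyte-like and OPC-like nuclei. Of all genes, 0.496%, 0.563% and 0.38% were then called in astrocyte-like nuclei in these contrasts, 0.45%, 1.33% and 0.581% in oligodendrocyte-like nuclei, and 0.144% in the knockout contrast of OPC-like nuclei. With the filter, edgeR called 0 to 8 of all genes in 19 of the 20 combinations and 137 in microglia-like nuclei of the active IKKb contrast. The p-values treat each mouse as the replicate.

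In excitatory neuron-like nuclei, 6 of 18058 genes tested (0.0332%) were called in P301S against non-transgenic mice, and none of the 32 members. No member had an unadjusted p below 0.05. The members' median log2 fold change was -0.08, with 27 of 32 lower, beside a median of -0.00 over all genes and -0.05 over the neuronal background list. The lowest values were Grin2c -0.35 ± 0.29, Grm4 -0.30 ± 0.22 and Dlg4 -0.22 ± 0.17 (log2 fold change ± SE), and the highest Grik1 0.10 ± 0.19, Dlg3 0.10 ± 0.07 and Grm3 0.07 ± 0.11. Each had an adjusted p of 1 by edgeR. For Grin2c, Grm4, Dlg4, Grm3 and Grik1 the sign changed when only mice of the floxed line were compared. Knockout P301S against P301S mice gave 0 calls (0.0%), and 1 member, Grm4 (0.60 ± 0.25, adjusted p = 0.542), had an unadjusted p below 0.05, where 8.89% of all genes did. The other high values were Grin2c 0.70 ± 0.33 and Grin3b 0.69 ± 0.49, both under 1 CPM, and at the other end Grik1 -0.27 ± 0.23, Gria3 -0.06 ± 0.13 and Gria4 -0.06 ± 0.15.

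In active IKKb P301S against P301S mice, 1 gene (0.00554%) was called in excitatory neuron-like nuclei, and Grm3, Grip2 and Grik4 were the members at an unadjusted p below 0.05 (3 of 32, against 5.54% of all genes). Grm3 measured 511, 545, 443 and 411 CPM in the non-transgenic mice, 514, 529 and 514 in the P301S mice, 498 and 492 in the knockout P301S mice and 406 and 352 in the active IKKb P301S mice. Both active IKKb mice were below all 3 P301S mice, and the non-transgenic mice spanned the gap. Its log2 fold change was -0.46 ± 0.13 (adjusted p = 0.823), and -0.29 with the breeding line as a covariate. In inhibitory neuron-like nuclei Grm3 was 119, 135, 99.8 and 126 CPM in the non-transgenic mice, 139, 154 and 135 in the P301S mice, 117 and 114 in the knockout P301S mice and 111 and 111 in the active IKKb P301S mice. The active IKKb and knockout mice were below all P301S mice, with a log2 fold change of -0.40 ± 0.12 (adjusted p = 0.819) in the active IKKb contrast, which came to -0.19 in named cortical interneurons alone. The lowest in excitatory neuron-like nuclei besides Grm3 were Grik1 -0.47 ± 0.23 and Grin2d -0.30 ± 0.17, and the highest Grin2c 0.58 ± 0.34, Grm4 0.50 ± 0.26 and Grik4 0.41 ± 0.18.

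**Figure D4:**
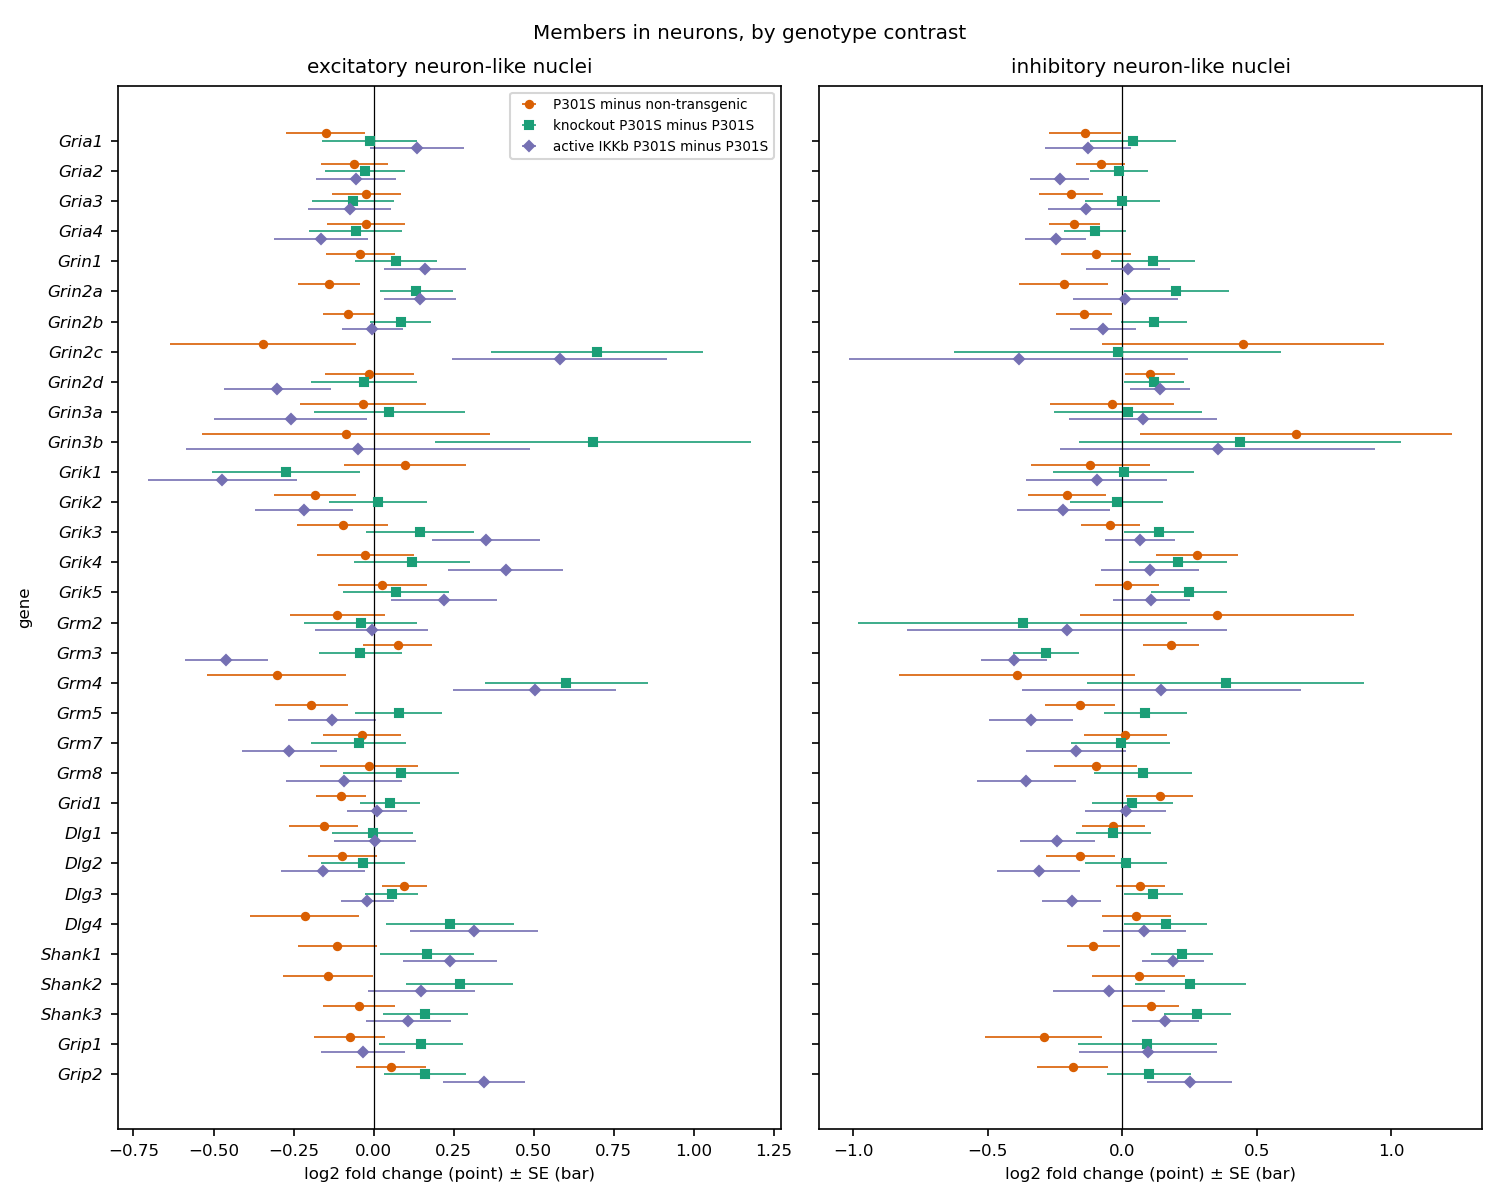
Log2 fold change (points) with its SE (bars) for each of the 32 genes in excitatory (left) and inhibitory (right) neuron-like nuclei in 3 genotype contrasts. Most points lie within 0.3 of 0 and none passed the call rule. Grin2c and Grin3b have wide bars in both types, and Grm2 and Grm4 in inhibitory neuron-like nuclei.

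The main AMPA and NMDA receptor genes were followed mouse by mouse in excitatory neuron-like nuclei. Gria1 measured 1200.4, 1057, 1122 and 1571 CPM in the non-transgenic mice, 1074, 1154 and 1221 in the P301S mice, 1216 and 1016 in the knockout P301S mice and 1370.4 and 1162 in the active IKKb P301S mice. The highest value was that of a non-transgenic mouse and the groups overlapped. Gria2 measured 1337, 1383, 1230.4 and 1226 CPM in the non-transgenic mice, 1361, 1349.7 and 1114 in the P301S mice, 1222 and 1243 in the knockout P301S mice and 1206 and 1271 in the active IKKb P301S mice, again with overlap of all groups. Grin1 measured 455, 499, 553 and 637 CPM in the non-transgenic mice, 473, 519.9 and 624 in the P301S mice, 541 and 564 in the knockout P301S mice and 585 and 620.5 in the active IKKb P301S mice. The spread within the non-transgenic mice covered every other group.

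Grin2a measured 2176, 2181, 2389.9 and 2701 CPM in the non-transgenic mice, 2237, 2259 and 2124 in the P301S mice, 2266 and 2487 in the knockout P301S mice and 2327 and 2582 in the active IKKb P301S mice, and 1 non-transgenic mouse was again the highest. Both knockout and both active IKKb mice were above all P301S mice and within the non-transgenic range. Grin2b measured 1842, 1782, 1823 and 1944 CPM in the non-transgenic mice, 1756, 1888 and 1758 in the P301S mice, 1829 and 1919 in the knockout P301S mice and 1912 and 1699.7 in the active IKKb P301S mice, and all groups overlapped. Grm5 measured 1766, 1613, 1644 and 1585 CPM in the non-transgenic mice, 1589, 1624 and 1225 in the P301S mice, 1561 and 1519 in the knockout P301S mice and 1387 and 1343 in the active IKKb P301S mice. The lowest Grm5 value was of a P301S mouse whose group mates were within the non-transgenic range. Both knockout and both active IKKb mice were below all non-transgenic mice. Over all 7 mice with the tau transgene against the 4 without, which share controls with the first contrast, Grm5 had a log2 fold change of -0.21 ± 0.09 and Grik2 of -0.24 ± 0.11, both with an edgeR adjusted p of 0.998. In that comparison 8 of 17433 genes (0.0459%) were called, no member among them, and 2 of the members had an unadjusted p below 0.05, as did 3.92% of all genes. Dlg1 (-0.16 ± 0.08) was next lowest, and Grip2 (0.20 ± 0.10), Grin3b (0.14 ± 0.36) and Grik4 (0.13 ± 0.14) were highest.

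Dlg4 measured 90.4, 88, 133 and 152 CPM in the non-transgenic mice, 103, 86.5 and 120.3 in the P301S mice, 116 and 122 in the knockout P301S mice and 129 and 127 in the active IKKb P301S mice. The knockout and active IKKb mice were within the range of the non-transgenic mice, and the P301S mice reached slightly below it. Dlg2 measured 7314, 7953, 7179.8 and 6517 CPM in the non-transgenic mice, 7215, 7414 and 6269 in the P301S mice, 6597 and 6796 in the knockout P301S mice and 6373 and 6199.8 in the active IKKb P301S mice. Shank3 measured 119, 116, 139 and 159 CPM in the non-transgenic mice, 122, 121 and 158 in the P301S mice, 139 and 152 in the knockout P301S mice and 134 and 153 in the active IKKb P301S mice. Both active IKKb mice were below all non-transgenic mice for Dlg2 but overlapped with the P301S mice, and for Shank3 all groups overlapped.

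In inhibitory neuron-like nuclei 2 of 15510 genes (0.0129%) were called in P301S against non-transgenic mice, and 0 (0.0%) in both contrasts against P301S mice, with no member in any. Members at an unadjusted p below 0.05 numbered 0, 2 and 1 of 32 in the P301S, knockout and active IKKb contrasts, where 4.46%, 7.27% and 5.85% of all genes were. The lowest values were Grm4 -0.39 ± 0.44, Grip1 -0.29 ± 0.22 and Grin2a -0.22 ± 0.16, and the highest values Grin3b 0.65 ± 0.58, Grin2c 0.45 ± 0.52 and Grm2 0.35 ± 0.51. The signs of Grip1 and Grin2a turned without the cluster led by Baiap3, to 0.06 and 0.13, an alternative chosen after the data were seen. In named cortical interneurons alone, chosen likewise, Grm4 was 0.0443 and Grin2c -0.0215. Knockout P301S against P301S mice gave Grin3b 0.44 ± 0.60, Grm4 0.38 ± 0.51 and Shank3 0.28 ± 0.12 at the top and Grm2 -0.37 ± 0.61, Grm3 -0.28 ± 0.12 and Gria4 -0.10 ± 0.11 at the bottom. In named cortical interneurons alone Grm3 was 0.00471 in that contrast. Active IKKb P301S against P301S mice gave Grin3b 0.35 ± 0.58, Grip2 0.25 ± 0.16 and Shank1 0.19 ± 0.12 at the top and, below Grm3, Grin2c -0.38 ± 0.63 and Grm8 -0.36 ± 0.19 at the bottom. Grin2c was 0.67 in named cortical interneurons alone.

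Over all 7 mice with the transgene, 1 of 14886 genes (0.00672%) was called in inhibitory neuron-like nuclei and no member. Of the 31 members tested, 6 had an unadjusted p below 0.05 (Gria4, Grik2, Gria3, Grin2d, Shank3 and Grik4), where 8.08% of all genes did. Gria4 was 1580.5 to 1742 CPM in non-transgenic, 1521 to 1614 in P301S, 1411 to 1451 in knockout P301S and 1261 to 1428 in active IKKb P301S mice. The knockout and active IKKb mice were below all other mice, and the P301S mice overlapped with the non-transgenic ones. The log2 fold change of Gria4 was -0.27 ± 0.08 (adjusted p = 0.573), -0.18 in named cortical interneurons alone and -0.16 without the Baiap3 cluster. Grik4 was 131 to 171 CPM in non-transgenic, 173 to 230.2 in P301S, 213 to 238 in knockout P301S and 168 to 271 in active IKKb P301S mice. All P301S and knockout mice were above the non-transgenic mice. The log2 fold change of Grik4 was 0.38 ± 0.12 (adjusted p = 0.573), and 0.17 and 0.14 in the same subsets. The Baiap3 cluster made up 8.77% to 26.9% of inhibitory neuron-like nuclei without the transgene and 20.3% to 69.8% with it, ranges that overlap. Shank3 (0.24 ± 0.10), Grin2c (0.36 ± 0.42), Grik2 (-0.26 ± 0.11) and Grip1 (-0.23 ± 0.16) were the other members at either end, which without that cluster came to 0.17, 0.67, -0.18 and 0.09.

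The same genes were followed mouse by mouse in inhibitory neuron-like nuclei. Gria1 was 2467 to 2565 CPM in non-transgenic, 2084 to 2638 in P301S, 2232 to 2629 in knockout P301S and 1908 to 2577 in active IKKb P301S mice. Gria2 was 879.8 to 998 CPM in non-transgenic, 888 to 1029 in P301S, 895 to 943 in knockout P301S and 802 to 844 in active IKKb P301S mice. Grin1 was 392 to 552 CPM in non-transgenic, 376 to 533 in P301S, 436 to 493 in knockout P301S and 447 to 461 in active IKKb P301S mice. Both active IKKb mice were below all other mice for Gria2, and for Gria1 and Grin1 all genotypes overlapped. Grin2a was 1369.7 to 1649.5 CPM in non-transgenic, 1199.5 to 1570.5 in P301S, 1398 to 1727 in knockout P301S and 1147 to 1693 in active IKKb P301S mice. Grin2b was 1504 to 1572 CPM in non-transgenic, 1371 to 1531 in P301S, 1503 to 1611 in knockout P301S and 1275 to 1559.7 in active IKKb P301S mice. For both, the active IKKb mice alone spanned most of the range. Grm5 was 1703 to 1951 CPM in non-transgenic, 1483 to 2003 in P301S, 1776 to 1824 in knockout P301S and 1341 to 1451 in active IKKb P301S mice. Dlg2 was 6379 to 7339 CPM in non-transgenic, 6257 to 6732 in P301S, 6235 to 6538 in knockout P301S and 4783 to 5814 in active IKKb P301S mice. Dlg4 was 70.9 to 105 CPM in non-transgenic, 82 to 106 in P301S, 98.6 to 101 in knockout P301S and 83.2 to 114 in active IKKb P301S mice. Both active IKKb mice were below all other mice for Grm5 and Dlg2, and for Dlg4 all genotypes overlapped. Shank3 was 85.1 to 108 CPM in non-transgenic, 102 to 111 in P301S, 124 to 128 in knockout P301S and 100.2 to 142 in active IKKb P301S mice. Both knockout mice were above all P301S mice for Shank3 (0.28 ± 0.12, edgeR adjusted p = 0.675). In the active IKKb contrast the log2 fold change was -0.23 ± 0.11 for Gria2, -0.34 ± 0.16 for Grm5 and -0.31 ± 0.15 for Dlg2, with adjusted p of 0.819, 0.819 and 0.819. The Baiap3 cluster made up 20.3% and 69.8% of the inhibitory neuron-like nuclei of these mice, and without it the values were -0.17, -0.26 and -0.24. In named cortical interneurons alone they were -0.03, -0.27 and -0.15.

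Subunit shares, which do not depend on how libraries are scaled, gave no difference that passed the test. In 24 exact two-sided permutation tests (3 shares, 2 neuronal types, 4 contrasts) the lowest p was 0.097 and the lowest adjusted p 0.914. With 4 against 3 mice the smallest p possible is 0.0286, and with 3 against 2 it is 0.1. Even with every one of the 24 tests at its smallest p, the adjusted p would be 0.0571 and 0.1, so none of these genotype contrasts could pass the threshold, and only the tests of all 7 transgenic against the 4 other mice could. The Gria2 share of AMPA UMIs in excitatory neuron-like nuclei averaged 27.2% and 27.2% in P301S and non-transgenic mice. The Grin2a share of Grin2a and Grin2b UMIs averaged 55.1% and 56%, and the Dlg4 share of Dlg1 to Dlg4 UMIs 1.38% and 1.49%. The lowest p belonged to the Dlg4 share in inhibitory neuron-like nuclei, 1.51% and 1.18% in all 7 transgenic and the 4 non-transgenic mice (exact permutation p = 0.097, adjusted p = 0.914).

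In microglia-like nuclei 25 of 26 members tested had lower values in P301S than in non-transgenic mice (median log2 fold change -0.30), as did 15 of 17 background genes (median -0.26). In knockout P301S against P301S mice 26 of 26 members had higher values (median 0.34), as did 17 of 17 background genes (median 0.38). Both contrasts share the P301S mice. No member was called in the microglial contrasts, with 4 (0.0444%), 0 (0.0%) and 137 (1.52%) of 9015 genes called in the P301S, knockout and active IKKb contrasts. In active IKKb against P301S mice the members' median was -0.06, and 0.15 with same-line controls. Of the members, Grik3 (0.96 ± 0.35, adjusted p = 0.276 by edgeR) and Grik4 (0.66 ± 0.26, adjusted p = 0.353) alone had an unadjusted p below 0.05. Of background genes 0 of 17 had one, and of all genes 8.71%. Grik3 was 16.5 to 25.6 CPM in non-transgenic, 7.77 to 16.4 in P301S and 22.7 to 23.6 in active IKKb P301S mice. The summed level of the background list in microglia-like nuclei was 9839 to 12713 CPM in non-transgenic, 7804 to 11008 in P301S, 11968 to 12178 in knockout P301S and 8354 to 10779 in active IKKb P301S mice, and its part in the members' shift was not tested. The P301S median came to -0.02 within the floxed line alone, and the knockout median to 0.13 with age as a covariate. Counts were summed over nuclei, and fewer nuclei with a transcript were not separated from less transcript per nucleus.

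**Figure D5:**
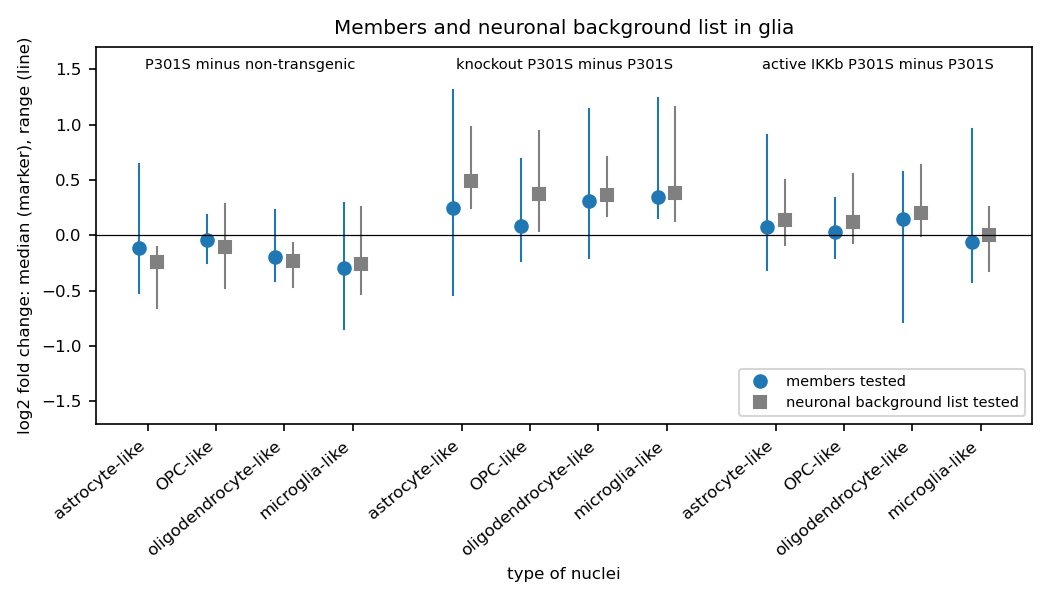
Median (marker) and range (line) of log2 fold changes in 4 glial types for the members tested (blue circles) and the neuronal background list (grey squares), in 3 genotype contrasts. In knockout P301S minus P301S both lists lie above 0 in all 4 types by median, and in P301S minus non-transgenic both lie below.

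In oligodendrocyte-like nuclei the members' median was -0.20 in P301S against non-transgenic mice (26 of 31 lower) beside -0.24 for the background list, and 0.31 in knockout against P301S mice (26 of 31 higher) beside 0.37. In the knockout contrast 14 of 31 members had an unadjusted p below 0.05, where 10 of 18 background genes and 12.4% of all genes did. The smallest p was that of Shank2 (0.85 ± 0.24, adjusted p = 0.28, and 0.000685 without the filter), which is within the background in these nuclei. Of the members above the background, Grm3 was 1776 to 2167 CPM in non-transgenic, 1734 to 1767 in P301S, 1496 to 1589 in knockout P301S and 1656 to 1999 in active IKKb P301S mice. All P301S mice were below all non-transgenic mice, and both knockout mice below all P301S mice. The log2 fold changes were -0.11 ± 0.09, -0.20 ± 0.11 and 0.06 ± 0.11 in the P301S, knockout and active IKKb contrasts, with edgeR adjusted p of 0.95, 0.464 and 0.975. Calls over all genes were 1 (0.00777%), 0 (0.0%) and 2 (0.0155%) of 12863. The P301S median of the members was -0.00 within the floxed line, and the knockout median 0.12 with age as a covariate. The summed background was 7109.9 to 9732 CPM in non-transgenic, 5846 to 8217 in P301S, 9094 to 9386 in knockout P301S and 7271 to 9248 in active IKKb P301S mice, and its part was not tested.

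In astrocyte-like nuclei, where Grin2c, Grm3 and Gria2 are above the background, 0 of 30 members and 0 of 12213 genes were called by edgeR in each contrast (0.0% in P301S, 0.0% in knockout and 0.0% in active IKKb mice). Unadjusted p below 0.05 was reached by 4, 7 and 3 members in the P301S, knockout and active IKKb contrasts, and by 4.89%, 9.53% and 5.25% of all genes. Grin2c was 415, 420.1, 439 and 515 CPM in the non-transgenic mice, 391, 349 and 338 in the P301S mice, 439 and 466 in the knockout P301S mice and 488 and 352 in the active IKKb P301S mice. All 3 P301S mice were below the 4 non-transgenic and both knockout mice, and the log2 fold change against non-transgenic mice was -0.36 ± 0.12 (adjusted p = 0.959). Knockout against P301S mice gave 0.33 ± 0.14 (adjusted p = 0.501). Grm3 was 2499.7, 2511, 2502 and 2104 CPM in the non-transgenic mice, 2108, 2097 and 1486 in the P301S mice, 2167 and 2123 in the knockout P301S mice and 2656 and 1576 in the active IKKb P301S mice. The P301S mice overlapped with the non-transgenic ones only through non-transgenic mouse 4, with a log2 fold change of -0.38 ± 0.17 (adjusted p = 0.959, and 0.0191 without the filter on low counts), and the active IKKb mice were the highest and the next to lowest of all. Gria2 was 1532 to 1598 CPM in non-transgenic, 1283 to 1703 in P301S, 1399 to 1641 in knockout P301S and 1504 to 1571 in active IKKb P301S mice, and overlapped between all groups.

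Gria1 had the largest spread relative to its mean in astrocyte-like nuclei among members with a mean above 20 CPM. With neither base was the gene above the neuronal background there, and its ratio to the highest neuronal type was 0.214 ± 0.124. It measured 429, 329, 310.1 and 379 CPM in the non-transgenic mice, 456, 695 and 519 in the P301S mice, 554 and 612 in the knockout P301S mice and 191 and 1251 in the active IKKb P301S mice. All P301S and knockout mice were above the non-transgenic mice, and the active IKKb mice were the lowest and the highest of the 11. The log2 fold change was 0.58 ± 0.37 in P301S against non-transgenic mice (adjusted p = 0.969). Without the filter on low counts it was 0.58 and called (edgeR adjusted p = 4.6e-05). Without active IKKb mouse 1, Gria1 was called in the active IKKb contrast (1.19, edgeR adjusted p = 0.0314), as were 0.0307% of all genes. That group was then the single mouse at 1251 CPM, and its spread was assumed to be that of the other groups. The share of the Baiap3 cluster among inhibitory neuron-like nuclei was 26.9%, 25.3%, 8.77% and 20.5% in the non-transgenic mice, 41.6%, 57.6% and 25.9% in the P301S mice, 40.9% and 29.9% in the knockout P301S mice and 20.3% and 69.8% in the active IKKb P301S mice. Mice are listed here as for Gria1, and the shares do not rank the mice as Gria1 does. The part of the Baiap3 cluster in the Gria1 values was not tested. The median over the members tested was -0.12 in the P301S (0.0245 within the floxed line) and 0.24 in the knockout contrast, beside -0.24 and 0.49 for the background list, whose summed level was 4412 to 6512 CPM in non-transgenic, 3882 to 5249 in P301S, 6173 to 6389 in knockout P301S and 4342 to 5948 in active IKKb P301S mice. The smallest p was that of Shank2 in knockout against P301S mice (1.31 ± 0.30, adjusted p = 0.398, and 1.59e-07 without the filter), a gene within the background here.

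In OPC-like nuclei, which held kainate and AMPA receptor transcripts, 28 members were tested and 0 called, with 1 (0.00984%), 1 (0.00984%) and 0 (0.0%) of 10167 genes called in the P301S, knockout and active IKKb contrasts. The members' medians were -0.04, 0.09 and 0.03, smaller in size than those of the background list (-0.11, 0.38 and 0.12). Without P301S mouse 3 the P301S and active IKKb medians were 0.00753 and -0.0195, and with age as a covariate the knockout median was -0.00299. Grin3a, the leading OPC member, was 731, 781, 789.9 and 706 CPM in the non-transgenic mice, 759.8, 765 and 842 in the P301S mice, 718 and 675 in the knockout P301S mice and 799.5 and 734 in the active IKKb P301S mice. Both knockout mice were below all P301S mice (log2 fold change -0.19 ± 0.10, adjusted p = 0.693 by edgeR), and the other groups overlapped. Grik4 was 467 to 604 CPM in non-transgenic, 440.2 to 501 in P301S, 496 to 559.8 in knockout P301S and 551 to 644 in active IKKb P301S mice, and its log2 fold change of 0.32 ± 0.11 in active IKKb against P301S mice had an adjusted p of 0.969. Grin2a, which was within the background, was 115 to 189.9 CPM in non-transgenic, 103 to 139.9 in P301S, 190.4 to 202 in knockout P301S and 122 to 152 in active IKKb P301S mice. Both knockout mice were above all P301S mice, with a log2 fold change of 0.69 ± 0.16 (adjusted p = 0.294, and 0.0489 without non-transgenic mouse 4, when 0.0593% of all genes were called). Without the filter it was also called (0.68, edgeR adjusted p = 0.0053), while the summed background list was 8364 to 9322 CPM in P301S and 10118 to 10144 CPM in knockout P301S mice. Its part in the Grin2a value was not tested.

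A list of 38 further genes of the glutamate synapse was tested in the same fits. Of 711 tests edgeR called 0, with 64 at an unadjusted p below 0.05 (9%, beside 6.34% over all genes). DESeq2 called 1, the astrocyte glutamate transporter Slc1a2 in oligodendrocyte-like nuclei of knockout against P301S mice (log2 fold change 0.65, DESeq2 adjusted p = 0.0437). DESeq2 called 6 of 12863 genes (0.0466%) there. The edgeR fit gave 0.65 ± 0.13 with an adjusted p of 0.28 for it. In excitatory neuron-like nuclei 8 of 38 were higher in P301S than in non-transgenic mice, 31 of 38 higher in knockout than in P301S mice and 30 of 38 higher in active IKKb than in P301S mice. The medians were -0.08, 0.10 and 0.15, beside -0.08, 0.07 and -0.00 for the members. These contrasts share the P301S mice.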

How the data were processed

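Nuclei of the frozen cortex of 11 mice were profiled by droplet single-nucleus RNA-seq, with 1 library per mouse. The deposited files hold raw UMI counts per gene and nucleus, which the authors made on mm10 with unspliced transcripts counted. The submitters' processing notes name Cell Ranger 3.1.0 and Seurat 3.0. Kept nuclei had 300 to 8000 genes and no more than 5% mitochondrial UMIs (112539 of 114118 barcodes), and 9603 predicted doublets were left out. Nuclei were clustered with leidenalg 0.10.2 in Python 3.11.15 at resolution 0.1 on 15 principal components of 2000 variable genes, from which the 32 genes and the pathway list were excluded. Clusters were named from fixed markers. A cluster of low-UMI nuclei stayed unnamed. A sizeable part of the excitatory and inhibitory neuron-like nuclei had a type but no named subtype.

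UMI counts were summed per mouse and type. Levels are CPM of the type's UMIs. Genotypes were compared with edgeR 4.0.16 in R 4.3.3 (quasi-likelihood test, TMM, filterByExpr), 1 fit per type over 11 mice, with Benjamini-Hochberg adjustment over all genes tested. DESeq2 1.42.0 was an alternative. The SE is the log2 fold change divided by the root of the F statistic. Shares were compared with exact two-sided permutation tests. The scripts were tested on simulated data. The other alternatives were the scaling, the filter, covariates for line and age, the title number as a block, doublets, upper-layer nuclei, same-line controls and leaving out each mouse. Values within the Baiap3 split were chosen after seeing the data.

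Named genes were every called member, the 3 highest and 3 lowest log2 fold changes in each neuronal contrast, up to 6 members above the background in each glial type, and 10 genes given per mouse. Other genes with an unadjusted p below 0.05 were named after their values were seen. The members and lists were chosen with earlier results of these data known. Depth is the summed UMIs given in the text, and counting error is largest for genes of few UMIs such as Grin3b and for microglia-like and OPC-like nuclei.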

Additional observations from a re-analysis of the deposited data

Results flagged for a closer look

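Of 50 groups of 4 non-transgenic mice (10 genes in 5 types), 4 held a mouse far from the other 3. Its gap to the nearest mouse was 0.859 to 0.972 of the range. Chance alone gives about 1 in 20 for a single group. All 50 groups are the same 4 mice and are not independent, so that rate does not show whether 4 is many. Grm3 in astrocyte-like nuclei was 2104 CPM in non-transgenic mouse 4, and the nearest of the others was 2499.7 CPM. Gria1 in oligodendrocyte-like nuclei was 287 CPM in the same mouse, with the nearest at 182 CPM. Gria1 in OPC-like nuclei was 232 CPM in that mouse as well, with the nearest at 150.05 CPM. Grm3 in oligodendrocyte-like nuclei was 2167 CPM in non-transgenic mouse 3, with the nearest at 1812 CPM.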

How the results depend on the processing

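Of the summary counts and shares, 162 values under other settings stayed on the same side as reported and 8 moved. Without a filter on low counts edgeR made 4 calls in P301S against non-transgenic mice (Grm3 and Gria1 in astrocyte-like, Grm7 and Grin2a in oligodendrocyte-like nuclei). It made 8 calls of 5 distinct members in the knockout contrast (Shank2 and Grin2a in both these types, Grin2a also in OPC-like, Shank3 in astrocyte-like, Grik3 and Grin2b in oligodendrocyte-like nuclei) and 3 in the active IKKb contrast (Grip1 in astrocyte-like, Grm7 and Grik1 in oligodendrocyte-like nuclei). Of these, only Grm3 in astrocyte-like nuclei was above the neuronal background with both bases. Grip1 and Grik1 were above it with the excitatory base alone, and the others with neither. With the filter there were 0, and over all genes the share called also rose, from 0.0% to 0.496% in astrocyte-like nuclei of the P301S contrast. The cause was not tested. Leaving out each mouse gave 0 to 1 calls in the knockout contrast (Grin2a in OPC-like nuclei without non-transgenic mouse 4, adjusted p = 0.0489) and 0 to 1 in the active IKKb contrast (Gria1 in astrocyte-like nuclei without active IKKb mouse 1, adjusted p = 0.0314, which leaves 1 mouse in that group, assumed to vary like the others). It gave 0 to 1 members above the background in microglia-like nuclei. With the highest neuronal type as the base, 2 members in place of 5 were above the background in oligodendrocyte-like nuclei (not Grik1, Grik2 and Grin2c), and the cause was not tested. Of single genes and list medians, 1306 values stayed close, 37 gene values turned sign and 6 moved, and no gene that turned sign was called. Of 390 list medians under other settings 20 changed sign.

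In excitatory neuron-like nuclei, P301S against non-transgenic, mice of the floxed line alone gave Grin2c 0.24, Grm4 0.17, Dlg4 0.0726, Grm3 -0.0332 and Grik1 -0.19. Grin2c was 0.026 with doublets kept, Grm3 was -0.0488 in upper-layer nuclei, Gria4 in the knockout contrast was 0.0521 in upper-layer nuclei, and Grin3b over all transgenic mice was -0.0398 with age as a covariate. In inhibitory neuron-like nuclei the named cortical subtypes gave Grm4 0.0443, Grin2a 0.15 and Grin2c -0.0215 in the P301S contrast, Grm3 0.00471 in the knockout, Grin2c 0.67 in the active IKKb and Grip1 0.00222 over all transgenic mice. Without the Baiap3 cluster Grip1 was 0.0649 and Grin2a 0.13 in the P301S contrast, and Grip1 0.0937 over all transgenic mice. Grm2 in the knockout contrast was 0.0559 with line as a covariate and 0.19 with same-line controls, and Grin3b in the active IKKb contrast was -0.017 with line as a covariate.

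Leaving out each mouse turned the sign of 13 of these gene values, and of list medians too, with ranges of -0.0511 to 0.00753 in the P301S and -0.0195 to 0.0626 in the active IKKb contrast of OPC-like nuclei, and in the active IKKb contrast -0.0338 to 0.039 in excitatory neuron-like, -0.10 to 0.15 in astrocyte-like and -0.17 to 0.0821 in microglia-like nuclei. In excitatory nuclei the ranges were -0.00017 to 0.16 for Grm3 and -0.0695 to 0.23 for Grik1 (P301S), -0.25 to 0.10 for Gria3 and -0.19 to 0.0633 for Gria4 (knockout), and -0.18 to 0.47 for Grin3b (all transgenic). In inhibitory nuclei they were -0.80 to 0.14 for Grm4, -0.21 to 0.88 for Grm2 and -0.34 to 1.11 for Grin2c (P301S), -0.71 to 0.19 for Grm2, -0.15 to 0.80 for Grm4 and -0.29 to 0.92 for Grin3b (knockout), and -0.84 to 0.41 for Grin2c and -0.42 to 0.65 for Grin3b (active IKKb). With the title number as a replicate block, 0 members were called in each contrast. Deviations of mice with the same number correlated between -0.50 and 0.58 in excitatory nuclei, with a median of 0.07 over 22 pairs, so the numbers were not taken to pair the mice. Groups of 2 mice, 2 breeding lines and low UMIs in glia limit what could be detected.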

Other observations

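Grik1 in oligodendrocyte-like nuclei, which was above the neuronal background with excitatory neuron-like nuclei but not with the highest neuronal type as the base, was 631 CPM in non-transgenic mouse 1 and 132 to 273 CPM in the other 10 mice. Both active IKKb mice, at 132 and 159 CPM, were below all 3 P301S mice, which had 239, 273 and 239 CPM. Non-transgenic mouse 4, also of the active line, lay between the active IKKb mice at 142 CPM. The log2 fold change was -0.79 ± 0.40, with an adjusted p of 0.967 by edgeR. Without the filter on low counts it was -0.77 and called, with an edgeR adjusted p of 1.45e-07, where 0.581% of all genes were called.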
